A study of Arabidopsis thaliana with 60 samples.

Results

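Leaves of Arabidopsis thaliana were compared after 2 min of high light (HL) and without treatment. The comparison used 6 of the 60 RNA sequencing libraries, 3 titled as local leaves under HL for 2 min and 3 titled as local control leaves at 0 min. Of the 32833 genes in the deposited table, 18074 averaged 10 or more normalized counts across these 6 libraries, and every one of these was tested. The plants were Col, labelled wild type, without any transgene or mutation named. They were bolting, that is, had begun to raise a flowering stem, and had grown at 23 °C under long days of 14 h of light and 10 h of dark at 50 µmol of photons per square metre per second. For HL a gooseneck lamp aimed at the leaf gave 1700 µmol per square metre per second, and control leaves are labelled as having had no treatment. Leaves heated for 2 min by a block 2 cm beneath them (HS), and leaves given HL on plants on which another leaf was heated (the HL leaf of HL&HS plants), served as further references, with 3 libraries each. The labels name no age and do not say whether the 3 libraries of a group came from separate plants. The p-values rest on the spread between libraries within groups, pooled over all 33 leaf libraries of 11 groups, and that spread may be technical. No untreated 2 min leaf was analysed here.

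Strong light drives photosynthetic electron transport faster than carbon fixation can use it, and the surplus gives reactive oxygen species and warms the leaf. Heat shock factors respond to misfolded proteins and to oxidants and switch on genes of heat shock proteins, chaperones that hold or refold damaged proteins. HSFA2 is the heat shock factor whose own transcript is best known to rise under both heat and strong light. Asparagine synthase ASN1 and SEN1 belong to the dark-induced genes, which light and sugar repress.

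The depth of the libraries split the series into classes that did not overlap. The 3 HL libraries held 31725824 to 43420418 reads and the 3 control libraries 12359077 to 12998149. All 27 libraries of 2 min were deep and all 33 of 0 and 8 min were shallow, so depth, and any batch that goes with it, cannot be told apart from treatment between HL and control. HL and HS libraries are of the same depth class and share no control, so the main gene counts and many named genes are given against both references. Values given against control only lack that second reference. HS leaves were themselves treated, and a difference from them can come from either group. A level of 3 reads, the least taken as detected, was worth 5.05 to 5.33 normalized counts in control and 1.60 to 2.21 in HL, for counting error only.

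The promoters of 3 of the genes that rose and 2 of those that fell are shown first. They were picked because the letters of stress and light elements lie in them, so they do not show how common these letters are. Each is the 250 bases before the annotated gene start, 5′ to 3′ on the strand of the gene, from RefSeq TAIR10.1. Capitals mark the heat shock element GAANNTTC in the first 3 and the I-box core GATAAG, or its reverse complement CTTATC, in the last 2. HSFA2 is on the + strand (chr2:11135374-11135623), HSP17.6C on the + strand (chr1:19980049-19980298) and BAG6 on the + strand (chr2:18985883-18986132). ASN1 is on the - strand (chr3:17441432-17441681) and SEN1 on the + strand (chr4:16944628-16944877).
HSFA2: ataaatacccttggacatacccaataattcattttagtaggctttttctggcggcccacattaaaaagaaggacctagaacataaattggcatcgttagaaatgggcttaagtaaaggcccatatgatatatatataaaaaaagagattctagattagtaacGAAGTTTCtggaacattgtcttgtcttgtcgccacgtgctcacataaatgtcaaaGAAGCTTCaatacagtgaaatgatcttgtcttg
HSP17.6C: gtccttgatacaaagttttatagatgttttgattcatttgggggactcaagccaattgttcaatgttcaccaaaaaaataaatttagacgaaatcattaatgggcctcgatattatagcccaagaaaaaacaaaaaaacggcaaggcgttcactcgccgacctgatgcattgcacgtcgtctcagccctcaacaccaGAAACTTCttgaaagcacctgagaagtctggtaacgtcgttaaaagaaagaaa
BAG6: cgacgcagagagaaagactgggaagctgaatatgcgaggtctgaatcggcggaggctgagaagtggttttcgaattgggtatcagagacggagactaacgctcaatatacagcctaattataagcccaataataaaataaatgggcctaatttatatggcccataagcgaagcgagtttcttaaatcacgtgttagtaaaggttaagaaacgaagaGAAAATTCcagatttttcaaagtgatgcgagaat
ASN1: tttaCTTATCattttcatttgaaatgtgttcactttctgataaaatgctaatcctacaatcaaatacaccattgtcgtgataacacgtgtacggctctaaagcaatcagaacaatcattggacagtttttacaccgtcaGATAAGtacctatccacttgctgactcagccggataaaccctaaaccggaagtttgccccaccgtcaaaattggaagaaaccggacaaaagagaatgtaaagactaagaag
SEN1: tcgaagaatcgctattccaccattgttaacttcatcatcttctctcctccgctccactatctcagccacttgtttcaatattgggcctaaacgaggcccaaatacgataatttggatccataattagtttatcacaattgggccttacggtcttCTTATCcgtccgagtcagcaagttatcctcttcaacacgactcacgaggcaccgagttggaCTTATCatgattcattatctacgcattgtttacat
In HSFA2 the element starts at -88 and at -33 from the gene start, in HSP17.6C at -53 and in BAG6 at -34. The I-box letters start at -246 and -111 in ASN1 and at -96 and -35 in SEN1. These matches describe the letters only and are not tested as sites of binding.

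After 2 min of HL, transcripts of small heat shock proteins, of the factor HSFA2 and of the co-chaperone BAG6 were several-fold higher than in control, while those of ASN1, SEN1 and AT2G45220 were several-fold lower. Most other changes were small. With limma and Benjamini-Hochberg adjustment over all 18074 genes, 3604 (19.9%) had an adjusted p under 0.05, which is the threshold for a call throughout: 2378 (13.2%) were higher under HL and 1226 (6.78%) lower. Only 161 (0.891%) of them differed at least 2-fold, 78 (0.432%) higher and 83 (0.459%) lower. All 3 HL libraries lay above or below all 3 control libraries in 6980 genes (38.6%). The median log2 difference over all genes tested was 0.02. Against HS, 1541 genes (8.53%) differed, 1049 (5.8%) higher under HL and 492 (2.72%) lower. At least 2-fold from HS were 110 (0.609%), 35 (0.194%) higher and 75 (0.415%) lower. At least 2-fold from control and from HS in the same direction were 55 genes (0.304%), 27 (0.149%) higher and 28 (0.155%) lower.

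The largest rise among genes with a mean of at least 50 was that of HSP17.6A-CI (AT1G59860, chr1:22031343-22032250), a small heat shock protein gene of the cytosolic class I. Its normalized counts were 81.7, 65.6 and 49.4 in control and 496, 510.5 and 465 under HL, and its mean under HS was 92.8 ± 15.0 (SD, n = 3). The log2 difference from control was 2.91 ± 0.10 (SE; adjusted p 1.4e-24, limma, Benjamini-Hochberg). Every HL library stood far above every control and HS library. In the HL leaf of HL&HS plants it averaged 633 ± 20.3, a log2 difference of -0.37 (HL minus that leaf; adjusted p 0.00467, limma, Benjamini-Hochberg). In stems it averaged 27.0 ± 0.759 on HL plants and 30.8 ± 1.86 on control plants.

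HSP17.6C (AT1G53540, chr1:19980299-19981199), another class I gene, held 14.2, 13.5 and 15.9 normalized counts in the control libraries and 98.7, 101 and 72.9 under HL, with a mean of 12.5 ± 4.86 under HS. Its log2 difference from control was 2.55 ± 0.16 (adjusted p 3.75e-16, limma, Benjamini-Hochberg). The HL libraries were all above the others, the lowest being that of replicate 3. In leaves given HL and heat together for 2 min (HL+HS) it averaged 1.68 ± 0.502. The class II genes HSP17.6A (AT5G12030) and HSP17.6II (AT5G12020) are neighbours on chromosome 5. HSP17.6A went from 44.4, 40.4 and 17.63 to 161, 153 and 142 and HSP17.6II from 49.7, 30.3 and 28.2 to 147, 174 and 148. Both sets of HL libraries lay clear of control, with log2 differences of 2.22 ± 0.17 and 2.13 ± 0.12, and under HS the genes averaged 20.9 ± 1.70 and 27.1 ± 0.478.

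Further small heat shock protein genes moved the same way. HSP17.8 (AT1G07400) rose from 51.1 ± 4.65 to 172 ± 17.0 and HSP17.6B-CI (AT2G29500) from 115 ± 6.65 to 336 ± 14.8. AT1G54050, annotated as an HSP20-like chaperone, rose from 237 ± 16.2 to 678 ± 16.5, and the peroxisomal HSP15.7 (AT5G37670) from 34.98 ± 11.1 to 91.6 ± 7.14. Their log2 differences from control were 1.73, 1.54, 1.52 and 1.41, and each was also higher than HS. HSP23.6 (AT4G25200), whose protein enters mitochondria, had 1, 3 and 0 reads in the control libraries and 52, 57 and 57 under HL. Its mean of 33.4 ± 4.27 normalized counts was at least 6.40-fold higher than the level of 3 reads per control library. HSP17.4 (AT3G46230) also rose, but a gene on the opposite strand covers 70.9% of its exons and the use of strand in counting is not given in the sources used here, so its reads are uncertain.

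HSFA2 (AT2G26150, chr2:11135624-11137792) held 236, 249 and 247 normalized counts in the control libraries and 931, 883 and 835 under HL. It had the smallest p of all genes tested, with a log2 difference of 1.85 ± 0.04 (adjusted p 4.06e-30, limma, Benjamini-Hochberg) from control and of 1.85 from HS, where it averaged 243 ± 4.62. Among the 15 tested of 21 listed heat shock factors, 4 were higher and 1 lower, against backgrounds of 13.2% and 6.78% of all genes, with a median log2 difference of 0.05. Besides HSFA2 the higher ones were HSFA8, HSFA4A and HSFB2A, with log2 differences of 0.41, 0.30 and 0.32, and the lower one was HSFB1 at -0.15. The constitutive factors HSFA1A, HSFA1B, HSFA1D and HSFA1E, which act upstream of HSFA2, did not pass the threshold, with log2 differences between -0.18 and 0.04. BAG6 (AT2G46240, chr2:18986133-18990220), a calmodulin-binding co-chaperone, went from 81.7, 80.8 and 106 to 454, 468 and 383, and averaged 77.5 ± 4.91 under HS. HL libraries of BAG6 lay well above both references, and the log2 difference from control was 2.28 ± 0.08 (adjusted p 2.94e-24, limma, Benjamini-Hochberg).

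**Figure D1:**
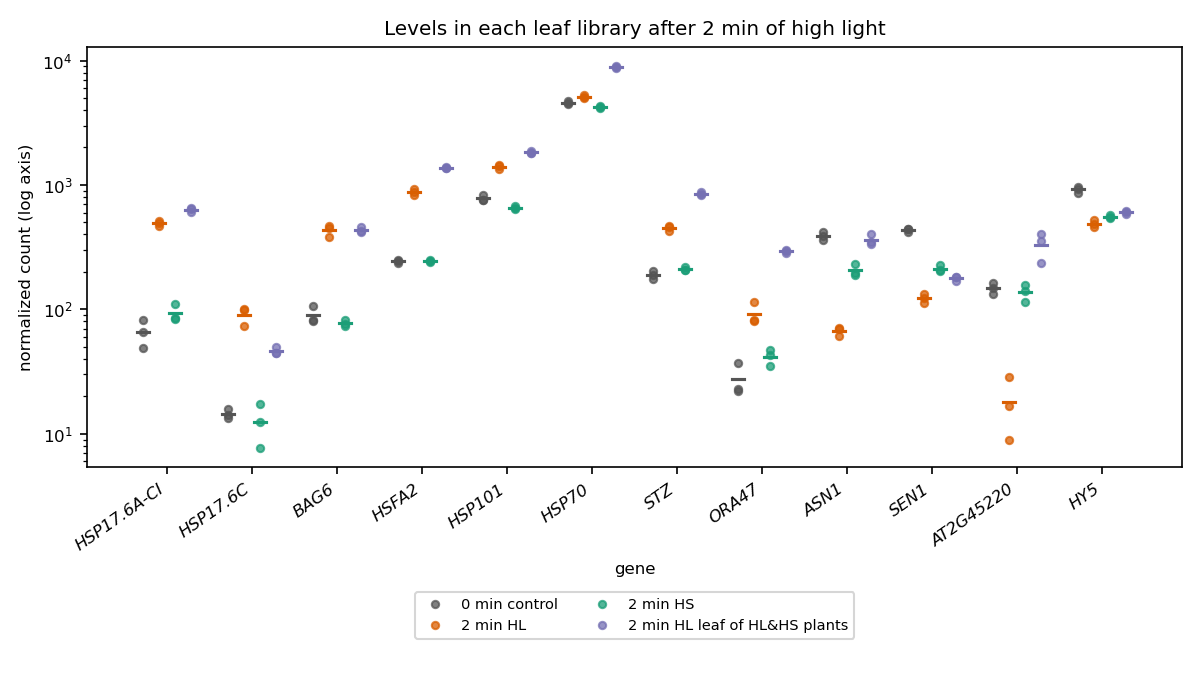
Normalized count (log axis) of 12 genes in each of the 3 libraries of 4 leaf groups: 0 min control, 2 min HL, 2 min HS and the 2 min HL leaf of HL&HS plants. Points are libraries and bars are group means; HSP17.6A-CI, BAG6 and HSFA2 are high in both HL groups only, whereas ASN1 and AT2G45220 are lowest in the HL group.

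Of the 36 heat shock proteins and heat regulators listed, 32 were tested, and 22 were higher than control and 0 lower, against backgrounds of 13.2% and 6.78%, and the median log2 difference was 0.45. That median stayed at 0.45 with HSP23.6 set to its lower bound. Against HS, 26 members were higher and 1, the galactinol synthase gene GOLS1, lower, against backgrounds of 5.8% and 2.72%. Values of the abundant chaperones lay closer to control. HSP101 (AT1G74310), which pulls proteins out of aggregates, went from 753, 759 and 832 to 1422, 1442 and 1333, a log2 difference of 0.84 ± 0.04, without overlap of the groups. HSP70 (AT3G12580) went from 4431, 4539 and 4710.5 to 5093, 5256 and 4973, a log2 difference of 0.16 ± 0.03 (adjusted p 0.000389, limma, Benjamini-Hochberg). HOP3 (AT4G12400), which links HSP70 to HSP90, rose from 461 ± 27.2 to 924 ± 47.1. The HSP90 genes HSP90.1, HSP90.2 and HSP90.3 were higher by 0.20, 0.16 and 0.14. The cognate genes HSC70-1 and HSP70-3 did not pass the threshold, at -0.04 and -0.07. In bulk RNA a change of a transcript in each cell and a change in the share of cells that hold it cannot be told apart.

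Genes of rapid stress regulators gave mixed values. The zinc finger gene STZ (AT1G27730, also called ZAT10) went from 174, 188 and 204 to 459.6, 471 and 428, a log2 difference of 1.26 ± 0.06 (adjusted p 2.03e-20, limma, Benjamini-Hochberg), and its groups did not overlap. RHL41 (AT5G59820, also called ZAT12), known to respond to reactive oxygen, held 119, 129.6 and 98.7 in control and 112, 153 and 125 under HL. Those ranges overlapped, and RHL41 did not pass the threshold (log2 difference 0.16 ± 0.11, adjusted p 0.322, limma, Benjamini-Hochberg). Of 9 tested ZAT and AZF genes 4 were higher and 1, ZAT5, lower, against 13.2% and 6.78% of all genes. The ethylene response factor gene ORA47 (AT1G74930) went from 23.1, 21.9 and 37.0 to 81.0, 114 and 81.4, and averaged 294 ± 8.15 in the HL leaf of HL&HS plants. For ORA47 the HL group lay between control and the HL&HS leaf, without overlap.

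Of 11 tested AP2/ERF and CBF genes 7 were higher and 1 lower, against 13.2% and 6.78% of all genes, with a median log2 difference of 0.38. ERF5 (AT5G47230) rose from 19.8 ± 4.29 to 44.5 ± 7.48 and ERF6 (AT4G17490) from 9.89 ± 3.80 to 28.4 ± 5.24. ERF5 was also higher under HL than under HS, whereas ERF6 did not pass the threshold between HL and HS. ERF6 was itself called higher under HS than control, so its rise was not particular to HL. CBF2 (AT4G25470), a cold-response regulator, rose from 20.9 ± 3.45 to 56.7 ± 2.13 and was at 23.64 ± 2.18 under HS. ERF11 was called here, but its groups overlapped, and without control replicate 3 its adjusted p was 0.157 against 0.0035 (range over 14 alternatives 5.36e-06 to 0.157, limma, edgeR or DESeq2 with Benjamini-Hochberg adjustment). RAP2.6L (AT5G13330) fell from 22.1 ± 5.49 to 4.95 ± 3.92. It averaged 10.9 ± 1.36 under HS, and its difference between HL and HS did not pass the threshold. Across the alternatives 3 to 9 members of that list were called higher. Of 19 WRKY genes 10 were higher and 2 lower than control, against 13.2% and 6.78% of all genes. Against HS, 2 were higher and 1 lower, with a median of -0.08, where 5.8% and 2.72% of all genes were called. WRKY40 (AT1G80840), a regulator of defence and abscisic acid responses, rose from 97.5 ± 17.3 to 199 ± 21.7 while staying at 100.4 ± 11.04 under HS.

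Touch and calcium genes showed smaller shifts: 10 of 17 tested were higher and 1 lower, with a median log2 difference of 0.28. The shares of all genes were 13.2% and 6.78%. XTH22 (AT5G57560, also called TCH4), a cell wall enzyme gene induced by touch, rose from 87.4 ± 12.6 to 175 ± 14.9. CML24 (AT5G37770, also called TCH2), a calmodulin-like sensor, rose from 744 ± 25.3 to 1153 ± 62.6; an opposite-strand gene covers 20.9% of its exons. The ethylene synthesis gene ACS6 (AT4G11280) was among the 5 rises with the smallest p. It went from 345, 328 and 324 to 826, 738 and 759, a log2 difference of 1.22 ± 0.05 (adjusted p 3.1e-22, limma, Benjamini-Hochberg). No control or HS library of ACS6 came near the HL libraries. DIC2 (AT4G24570), a mitochondrial dicarboxylate carrier, rose from 92.3 ± 20.9 to 254 ± 8.73 and was at 85.5 ± 14.0 under HS. CYP707A3 (AT5G45340), which breaks down abscisic acid, rose from 49.5 ± 19.1 to 117 ± 11.7. The deadenylase gene CAF1a and the transcription factor gene MYB77, chosen after their values were seen, rose from 218 ± 18.0 to 582 ± 22.8 and from 89.8 ± 7.94 to 249 ± 13.8.

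**Figure D2:**
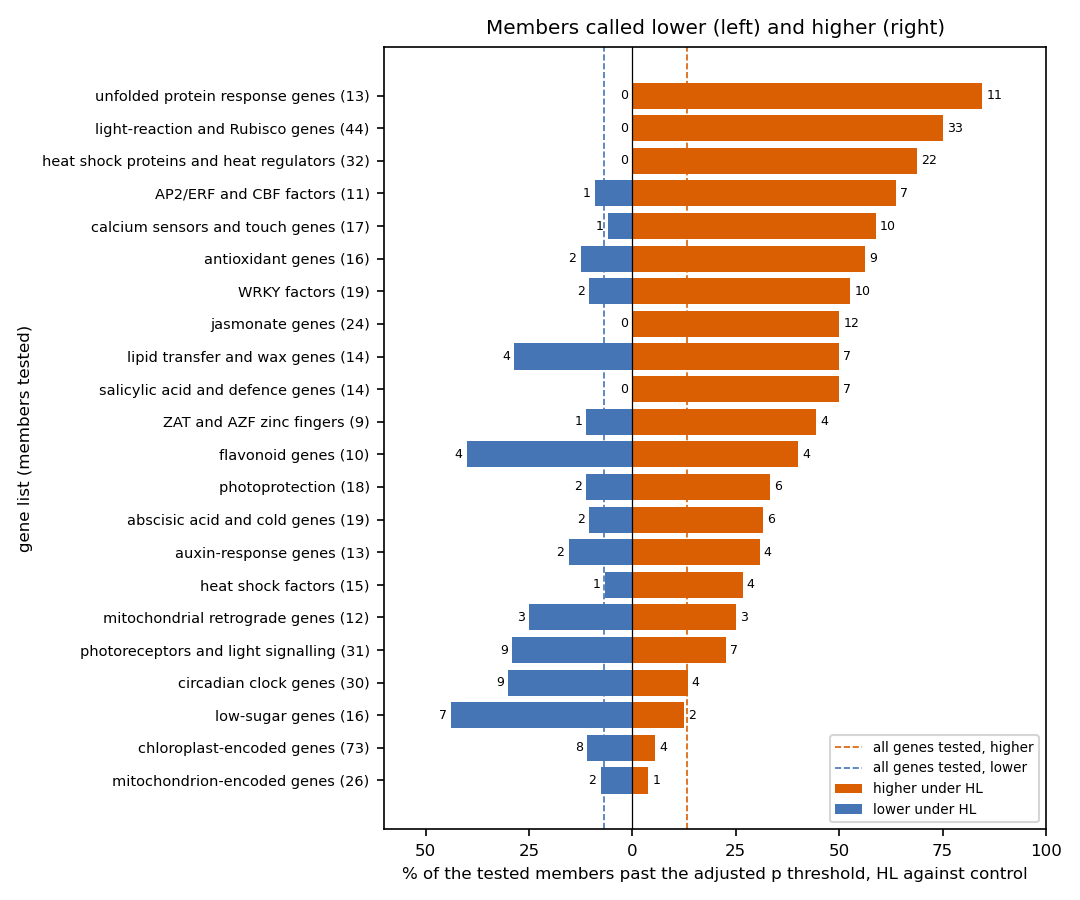
Share of the tested members of 22 gene lists that were called higher (right, orange) or lower (left, blue) under HL than control, with the number of members at the end of each bar. Dashed lines mark the shares over all genes tested, 13.2% higher and 6.78% lower; the unfolded protein response, light-reaction and heat lists reach farthest to the right with 0 lower.

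Genes of the light reactions were slightly and widely higher. Of 44 tested nuclear genes for light-harvesting proteins, photosystem subunits, Rubisco and its activase, 33 were higher and 0 lower, against 13.2% and 6.78% of all genes. Their median log2 difference was 0.24, with a range of -0.13 to 0.51. Against HS, 16 were higher and 0 lower, with a median of 0.13, where 5.8% and 2.72% of all genes were called. LHCB5 (AT4G10340), an antenna protein of photosystem II, held 112331, 111280.0 and 108935 in control and 144621, 139762 and 138934 under HL, a log2 difference of 0.35 ± 0.03. LHCA3 (AT1G61520), an antenna protein of photosystem I, went from 99696, 99181 and 100251 to 125467, 122783 and 122325. In both genes the replicate spread was small beside the shift, and the groups did not overlap. RCA (AT2G39730), Rubisco activase, averaged 487302 ± 3807 and 513465 ± 4568 and did not pass the threshold. Of 73 tested chloroplast-encoded genes 4 were higher and 8 lower, with a median of -0.10, against 13.2% and 6.78% of all genes. Leaving out each library in turn gave 1 to 3 higher and 1 to 9 lower, with 1 lower without HL replicate 1, 2 without control replicate 2 and 4 without HL replicate 2; the higher count was 1 without HL replicate 3 or control replicate 2 and 2 without HL replicate 2 or control replicate 1. Of 26 mitochondrion-encoded genes 1 was higher and 2 lower, against 13.2% and 6.78% of all genes. The median log2 difference over all genes under scaling by the 6 libraries alone was -0.00146, and 32 to 40 light-reaction genes were higher in the fits that left out no library.

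Photoprotection and light signalling did not move as 1 group. ELIP1 (AT3G22840) and ELIP2 (AT4G14690), early light-induced proteins of the thylakoid membrane, were lower: ELIP1 went from 727, 648 and 749 to 572, 549 and 523, and ELIP2 from 115, 139.7 and 113 to 69.2, 67.2 and 74.0. Neither gene overlapped between groups, and their log2 differences were -0.37 ± 0.07 and -0.79 ± 0.14. ELIP1 was nevertheless higher under HL than under HS, by 0.36. ELIP2 averaged 62.9 ± 4.90 under HS, and its difference between HL and HS did not pass the threshold. Of 18 photoprotection genes 6 were higher and 2 lower than control, against 13.2% and 6.78% of all genes. The higher ones included PSBS (0.18), which is needed for energy quenching, and VTE1 (0.27), which makes tocopherol. HY5 (AT5G11260), a central activator of light-regulated genes, held 965, 927 and 866 in control and 521, 486 and 458 under HL. Its log2 difference from control was -0.91 ± 0.08 (adjusted p 2.97e-12, limma, Benjamini-Hochberg), but its HS mean was 555 ± 20.9 and the difference between HL and HS did not pass the threshold. Of 31 photoreceptor and light signalling genes 7 were higher and 9 lower than control, against 13.2% and 6.78% of all genes. PHYA (AT1G09570) fell from 1627 ± 59.8 to 1229.9 ± 39.9, and the growth regulator PIF4 (AT2G43010) rose from 1801 ± 111 to 2554 ± 69.9. Under HS they averaged 1335 ± 10.8 and 2450 ± 42.3, and neither passed the threshold between HL and HS.

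Among 16 antioxidant genes 9 were higher and 2 lower, against 13.2% and 6.78% of all genes, with a median of 0.15. APX2 (AT3G09640), a cytosolic ascorbate peroxidase long used as a marker of high light, had 9, 4 and 0 reads in control and 31, 33 and 47 under HL. In normalized counts it held 16.0, 6.73 and 0 in control and 22.8, 18.3 and 25.01 under HL, a log2 difference of 2.17 ± 0.45 (adjusted p 0.000371, limma, Benjamini-Hochberg), and was at 30.2 ± 3.94 under HS. Without control replicate 3, where APX2 had 0 reads, the log2 difference from control was 1.00 (0.997 to 3.31 over 14 alternatives). The difference between HL and HS did not pass the threshold for APX2. FSD1, an iron superoxide dismutase, differed from control by 0.57 and from HS by -0.47. The respiratory burst oxidase genes RBOHD (AT5G47910) and RBOHF (AT1G64060), whose enzymes make superoxide outside the cell, averaged 1929 ± 55.7 and 502 ± 35.3 in control and 1772 ± 18.4 and 575 ± 13.6 under HL. Neither passed the threshold (adjusted p 0.112 and 0.0755, limma, Benjamini-Hochberg).

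Genes of the unfolded protein response were mostly higher than control and none was higher than HS. Of 13 unfolded protein response genes, which serve protein folding in the endoplasmic reticulum, 11 were higher than control and 0 lower, with a median of 0.29. The shares of all genes against control were 13.2% and 6.78%. Against HS, 0 were higher and 5 lower, against 5.8% and 2.72% of all genes, and all 13 lay below HS. ERDJ3B (AT3G62600), a J protein of that compartment, went from 1905 ± 39.0 to 2490.3 ± 116 and was at 2772 ± 123 under HS. SHD (AT4G24190), the HSP90 of the endoplasmic reticulum, averaged 12504 ± 395 in control, 16025 ± 922 under HL and 17841 ± 389 under HS. In the HL leaf of HL&HS plants the same genes were far lower, at 1014 ± 16.8 and 6608 ± 282. HL was above that leaf by 1.29 and 1.28 on the log2 scale (adjusted p 1.03e-24 and 1.06e-23, limma, Benjamini-Hochberg).

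Jasmonate and defence genes were also read against both references. Of 24 tested jasmonate genes 12 were higher than control and 0 lower, with a median of 0.26, against 13.2% and 6.78% of all genes. Against HS, 0 were higher and 8 lower, where 5.8% and 2.72% of all genes were called. LOX2, which starts jasmonate synthesis, averaged 7322 ± 177 in control, 10705 ± 236 under HL and 14236 ± 171 under HS. The storage protein gene VSP2 did not pass the threshold against control (182 ± 23.46 in control, 211 ± 77.1 under HL) and was at 935 ± 106 under HS. Of 14 salicylic acid and defence genes 7 were higher and 0 lower than control, and 1 was higher and 3 lower than HS, against the same shares of all genes. PR1 (AT2G14610), a secreted antimicrobial protein gene, went from 1569, 1461 and 1564 to 2498, 2570.1 and 2352, a log2 difference of 0.69 ± 0.11, and averaged 3664 ± 214 under HS. EDS1 (AT3G48090), which relays immune receptor signals, went from 1366 ± 16.9 to 1896 ± 33.4 and was at 1881 ± 20.8 under HS. For PR1 the HL libraries lay between those of control and HS, and for EDS1 the difference between HL and HS did not pass the threshold.

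**Figure D3:**
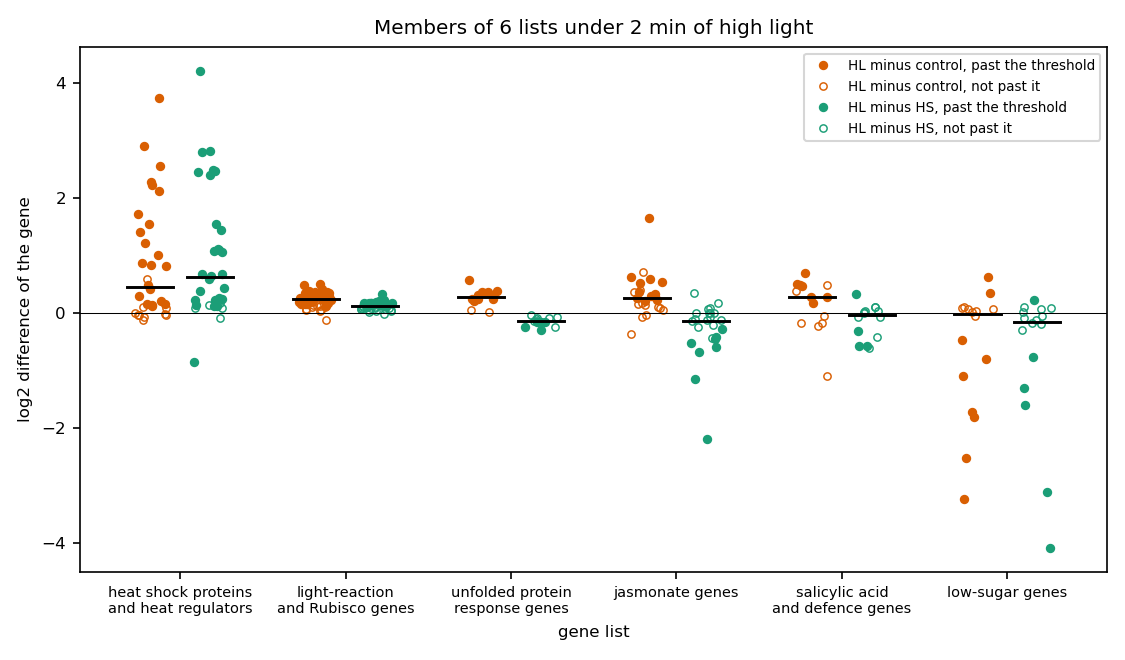
Log2 difference of each tested member of 6 lists, HL minus control (orange) and HL minus HS (green); filled points passed the adjusted p threshold of 0.05, open ones did not, and black lines are medians. Of 32 heat genes 26 lie above 0 against control and 30 against HS (medians 0.45 and 0.62), whereas all 13 unfolded protein response genes lie above control and below HS (medians 0.29 and -0.14).

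The genes that fell furthest included ASN1 (AT3G47340, chr3:17437840-17441431), which stores nitrogen as asparagine. It held 386, 358 and 421 normalized counts in control and 69.2, 61.7 and 70.2 under HL, a log2 difference of -2.52 ± 0.12 (adjusted p 6.77e-19, limma, Benjamini-Hochberg). HS leaves averaged 207 ± 22.2, and the HL leaf of HL&HS plants 362 ± 35.2. All HL libraries were below all libraries of these 3 references, and the HL group had the lowest mean of the 11 leaf groups. SEN1 (AT4G35770, chr4:16944878-16946266), a senescence-associated gene, went from 418, 444 and 444 to 133, 113 and 125, a log2 difference of -1.81 ± 0.10 (adjusted p 6.66e-17, limma, Benjamini-Hochberg). Its HL libraries were again below every control and HS library, where the HS mean was 211 ± 12.7. Under HL+HS for 2 min SEN1 averaged 809 ± 61.9 and ASN1 604 ± 10.4, both above the control means.

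Of 16 tested low-sugar genes 7 were lower than control and 2 higher, against 6.78% and 13.2% of all genes. Of the 7 lower ones 5 fell by at least 2-fold, and the median of the list was -0.01. GPT2 (AT1G61800), a sugar phosphate translocator of plastids, averaged 21.0 ± 6.78 in control, 5.88 ± 2.58 under HL and 55.5 ± 2.33 under HS. The place of GPT2 in this list does not mean that sugar represses it. BGLU30 (AT3G60140), a beta-glucosidase gene also called DIN2, had 15, 9 and 23 reads in control and 2, 2 and 6 under HL. BT2 (AT3G48360), a sugar-repressed regulator, fell from 41.5 ± 15.5 to 18.15 ± 4.11, but without control replicate 2 its adjusted p was 0.0625 (0.000833 to 0.0625 over 14 alternatives, limma, edgeR or DESeq2 with Benjamini-Hochberg adjustment). The members that rose were TPS8 and TPS11, trehalose phosphate synthase-like genes, by 0.36 and 0.62. Outside that list, the sucrose exporter SWEET12 (AT5G23660) fell from 252, 274 and 217 to 81.0, 102 and 90.5, a log2 difference of -1.43 ± 0.16. BMY3 (AT5G18670), a beta-amylase gene, fell from 13113 ± 261 to 8606 ± 159 and was also low under HS, at 8102 ± 121.

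**Figure D4:**
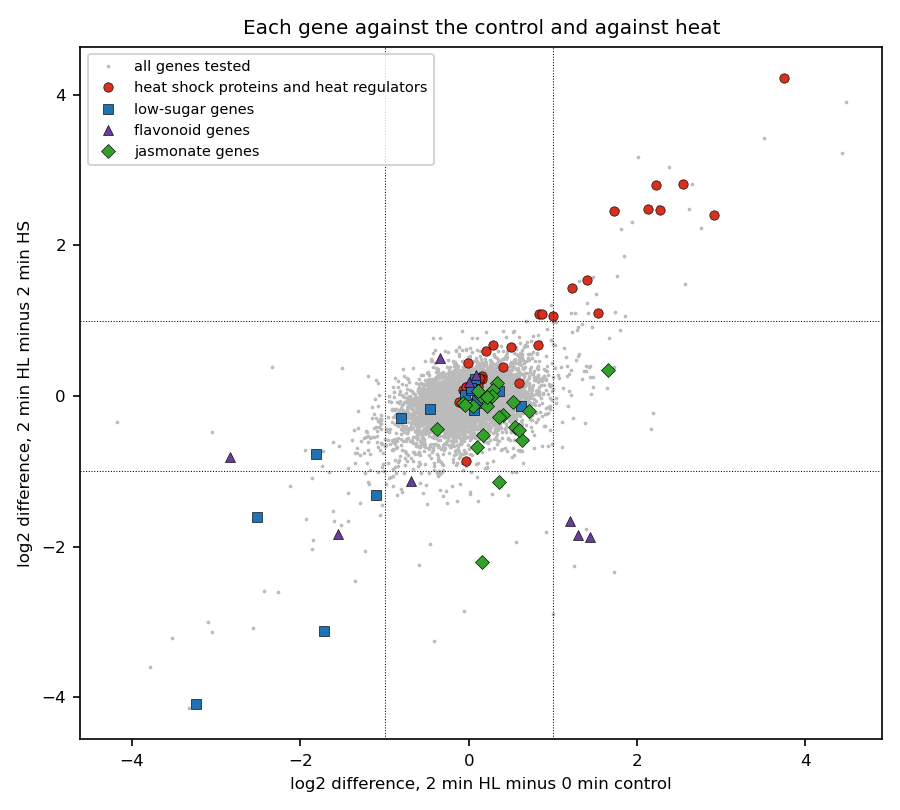
Log2 difference of each of the 18074 genes tested, HL minus control (horizontal) against HL minus HS (vertical), with 4 lists coloured and dotted lines at 2-fold. Both axes contain the same HL libraries, so the slope of the cloud is not a result. The 11 heat genes called at least 2-fold higher than control lie at the upper right, while the medians of all 32 are 0.45 and 0.62. ASN1, GPT2 and BGLU30 lie at the lower left, and 3 anthocyanin genes at the lower right.

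Other falls set the HL leaf apart from the further references. AT2G45220 (chr2:18644061-18646606), annotated as a pectin methylesterase inhibitor-type gene, held 133, 148 and 162 in control and 8.84, 16.7 and 28.7 under HL. Its mean was 138 ± 20.8 under HS and 332 ± 87.6 in the HL leaf of HL&HS plants. AT1G26390 (chr1:9130013-9131779), of the berberine bridge enzyme family, went from 167, 183 and 199 to 25.04, 21.7 and 50.6, and averaged 267 ± 67.8 under HS and 443 ± 65.0 in the HL leaf of HL&HS plants. Both genes were lower under HL than control, with log2 differences of -3.10 ± 0.31 and -2.56 ± 0.28, and neither overlapped with any of the 3 references. The same HL libraries enter the comparisons with control, with HS and with the HL leaf of HL&HS plants, so genes chosen for a low or high HL level lean the same way in each, and nothing is read from the following counts beside the shares of all genes. Of the 83 genes at least 2-fold lower than control, 38 were called lower than HS and 0 higher, and 45 lower than the HL leaf of HL&HS plants and 0 higher. Of the 78 higher genes, 36 were called higher than HS and 6 lower, and 15 higher than the HL leaf of HL&HS plants and 16 lower. The shares of all genes were 5.8% higher and 2.72% lower for HS, and 10.1% and 8.73% for the HL leaf of HL&HS plants. Chosen after their values were seen, nitrilase NIT2 averaged 75.5 ± 36.5 in control and 5.32 ± 1.52 under HL, glutathione transferase GSTU3 35.4 ± 7.52 and 2.02 ± 2.097, and JRG21 70.3 ± 12.5 and 6.61 ± 3.33. Under HS these genes averaged 56.6 ± 5.65, 31.8 ± 10.98 and 125 ± 26.2, and in the HL leaf of HL&HS plants 92.4 ± 18.1, 52.8 ± 16.2 and 148 ± 62.5.

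A trio of genes known from phosphate starvation was lower as well. SPX1 (AT5G20150), a phosphate sensor, held 609, 635 and 582 in control and 294, 273 and 235 under HL, with 600.0 ± 12.9 under HS. PAP17 (AT3G17790), an acid phosphatase, went from 1258, 1368 and 1241 to 702, 690.4 and 684, a log2 difference of -0.89 ± 0.05 (adjusted p 7.42e-18, limma, Benjamini-Hochberg). SRG3 (AT3G02040), a glycerophosphodiester phosphodiesterase, fell from 342 ± 30.7 to 119 ± 12.4, though an opposite-strand gene covers 44.7% of its exons. Each was lower than control, HS and the HL leaf of HL&HS plants, without overlap between HL and control. None was taken from a list of phosphate genes. PAP17 was reached by the rule for the smallest p. SRG3 was reached by the rules for the largest falls and for the largest differences from HS, and SPX1 by the latter only. That SPX1 and SRG3 were lower than HS was therefore part of how they were chosen. AT7SL-1 (AT4G02970), an RNA of the signal recognition particle, fell from 242, 274 and 194 to 49.3, 72.2 and 61.2. It averaged 99.8 ± 1.66 under HS and 95.8 ± 21.4 in the HL leaf of HL&HS plants, so it was below control there too. Its call as lower than HS was lost in 5 of 15 alternatives. Of its 50-base windows 33.6% are shared with other genes.

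Flavonoid genes moved in both directions. DFR (AT5G42800), LDOX (AT4G22880) and F3'H (AT5G07990), enzymes of anthocyanin synthesis, were higher than control and much lower than HS. LDOX held 69.3, 69.0 and 75.8 in control, 196, 176 and 161 under HL and 638 ± 24.2 under HS, without overlap, and its log2 difference from HS was -1.84. DFR averaged 82.4 ± 8.29, 225 ± 15.3 and 823 ± 40.8 in the same order. Neither gene overlapped between any of these groups, but the call for DFR against control (adjusted p 0.0233) was lost in 6 of 15 alternatives, with adjusted p from 2.79e-09 to 0.301 (limma, edgeR or DESeq2 with Benjamini-Hochberg adjustment). Regulators named by the rule fell. MYB90 (AT1G66390), an activator of anthocyanin genes, fell from 88.8, 119 and 91.7 to 30.2, 36.7 and 32.99, and MYB111 (AT5G49330), an activator of flavonol genes, from 37.3, 30.3 and 51.1 to 1.47, 8.33 and 6.39. Under HS they averaged 120.9 ± 6.05 and 8.92 ± 2.77, and MYB111 did not pass the threshold between HL and HS. Over the list of 10 tested genes 4 were higher and 4 lower than control, against 13.2% and 6.78% of all genes. Against HS, 2 were higher and 5 lower, where 5.8% and 2.72% of all genes were called.

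Of 30 clock genes 4 were higher and 9 lower than control, against 13.2% and 6.78% of all genes, and 6 or 7 were lower with any 1 HL or control library left out. The direction was the other way against HS, with 10 higher and 2 lower and a median log2 difference of 0.06. Against HS, 5.8% and 2.72% of all genes were called. RVE2 (AT5G37260), a morning-phase factor, fell from 361, 387 and 326 to 141, 162 and 150.1, and averaged 222 ± 12.4 under HS. LHY, the core morning gene, differed from control by -0.38 and from HS by 0.13 on the log2 scale. CCA1 did not pass the threshold against control, at -0.08. BOA (AT5G59570) also fell, from 19.7 ± 0.427 to 8.70 ± 3.31, but its call was lost in 5 of 14 alternatives (adjusted p 0.00724 to 0.134, limma, edgeR or DESeq2 with Benjamini-Hochberg adjustment) and an opposite-strand gene covers 45.9% of its exons. Control leaves were labelled 0 min and HL leaves 2 min, and the hour of sampling is not given in the sources used here. Of 13 auxin-response genes 4 were higher and 2 lower than control, against 13.2% and 6.78% of all genes. IAA29 (AT4G32280) rose from 23.1 ± 8.19 to 61.6 ± 3.25 and was at 46.9 ± 1.59 under HS, while GH3.3 (AT2G23170), which conjugates auxin, fell from 62.9 ± 17.3 to 26.1 ± 3.00. Among 14 lipid transfer and wax genes 7 were higher, CER1 by 0.45, and 4 lower, against 13.2% and 6.78% of all genes. LTP4 (AT5G59310) went from 92.4, 62.3 and 82.9 to 10.3, 5.55 and 10.6, with 12.8 ± 4.203 under HS. Of 19 abscisic acid and cold genes 6 were higher and 2 lower, against 13.2% and 6.78% of all genes, with 0 lower without control replicate 3. Of 12 mitochondrial retrograde genes 3 were higher and 3 lower, against 13.2% and 6.78% of all genes. Among the lower ones was the alternative oxidase gene AOX1D (AT1G32350), from 39.0 ± 8.65 to 13.7 ± 1.65.

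Markers of other tissues were read beside these changes. The summed level of 10 xylem and secondary wall markers was 857 to 972 in control, 903 to 992 under HL and 68061 to 72571 in control stem, with NST1 at 0 in both leaf groups. None of the 7 tested was called against control or HS, but all 7 lay below HS, with a median log2 difference of -0.45, and their sum under HS was 1143 to 1323. The sum of 6 flower and pollen markers was 89.9 to 104 in control and 147 to 172 under HL, with AP1 at 0 under HL, and 0 of 3 tested were called against control. PGA4 and AG, which specifies stamens and carpels, were called higher than HS, but those calls were lost in 8 of 13 and 7 of 15 alternatives. PGA4 (AT1G02790), a polygalacturonase gene, held 7.11, 10.10 and 10.6 in control and 53.0, 46.1 and 25.5 under HL, without overlap. It did not pass the threshold against control in the main fit but did in 2 of 14 alternatives, with only the compared groups and in edgeR. AG did not pass it against control either, but did in 6 of 15 alternatives. Among the genes at least 2-fold higher, VGDH1 and sks13, known from pollen and chosen after their values were seen, rose. VGDH1 held 1.78, 8.42 and 1.76 in control and 25.8, 31.7 and 19.7 under HL, and sks13 14.2, 15.1 and 8.81 and 55.2, 62.2 and 37.3. Of the 83 lower genes 9 (10.8%) had at least 10 times their control leaf level in control stem, of the 78 higher genes 14 (17.9%) and of all genes tested 443 (2.45%). LTP4 averaged 23860 in control stem, the stem meristem gene KNAT1 8026, AT2G45220 3462, the wax-synthesis gene CYP96A15 16636 and the peroxidase gene PER64 22059. All of these fell under HL, whereas the 14 others rose. Among those 14, AT5G12940, RABA6a and AT1G10640, chosen after their values were seen, averaged 1459, 1300 and 730 in control stem. They went from 59.6, 7.54 and 28.4 in control leaf to 138, 18.5 and 73.8 under HL. CYP96A15 and PER64, chosen after their values were seen, averaged 35.7 ± 15.6 and 20.7 ± 8.49 in control leaf, 1.11 ± 1.105 and 5.96 ± 3.14 under HL and 1.82 ± 1.58 and 12.9 ± 5.06 under HS. KNAT1 averaged 18.6 ± 5.60 in control leaf, 2.93 ± 1.31 under HL and 2.00 ± 0.838 under HS. The part of these tissue markers in the results was not tested. The defining leaf mesophyll markers were high in all 6 libraries, with a sum of 1178970 to 1198710 in control and 1267520 to 1275980 under HL, and 1 of 5 tested, the carbonic anhydrase gene CA1, was higher.

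Letters of known elements were counted in the 250 bases before the gene start, on both strands. The heat shock element GAANNTTC was present in 17 of 78 promoters (21.8%) of the genes at least 2-fold higher than control, in 10 of 79 (12.7%) of those lower and in 9.53% of the 17974 promoters of all genes tested. Of the genes at least 2-fold higher than control and HS it was in 7 of 27 (25.9%). The I-box core GATAAG was in 19 of 79 promoters (24.1%) of the lower genes, 11.5% of the higher and 12.4% of all. Among genes at least 2-fold from both control and HS the order was the other way, with 6 of 27 higher genes (22.2%) and 5 of 28 lower genes (17.9%). The GCC box GCCGCC was in 6.41% of the higher genes, 3.8% of the lower and 2.01% of all. The G-box CACGTG was in 11.5% of the higher, 8.86% of the lower and 7.44% of all, and the W-box core TTGACC in 12.8%, 12.7% and 12.0%. The rapid stress response element CGCGTT was in 3.85% of the higher, 1.27% of the lower and 2.81% of all. In the genes higher than both control and HS it was in 3 of 27 (11.1%). The DRE core ACCGAC was in 1.28% of the higher, 5.06% of the lower and 5.3% of all, and the evening element AAATATCT in 2.56%, 7.59% and 4.86%. These shares carry no test. HSP17.6A-CI, the gene with the largest rise among those with a mean of at least 50, had no exact match to GAANNTTC. Nor had HSP23.6, HSP17.6A, HSP17.6II, HSP17.8, HSP17.6B-CI, AT1G54050, HSP15.7, HOP3, HSP101 and HSP70, whereas HSFA2, HSP17.6C, BAG6 and HSP17.4 had a match. So had PAP17, BT2, SWEET12, SRG3 and BGLU30, which fell. A missing match says only that these letters are not in that window.

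**Figure D5:**
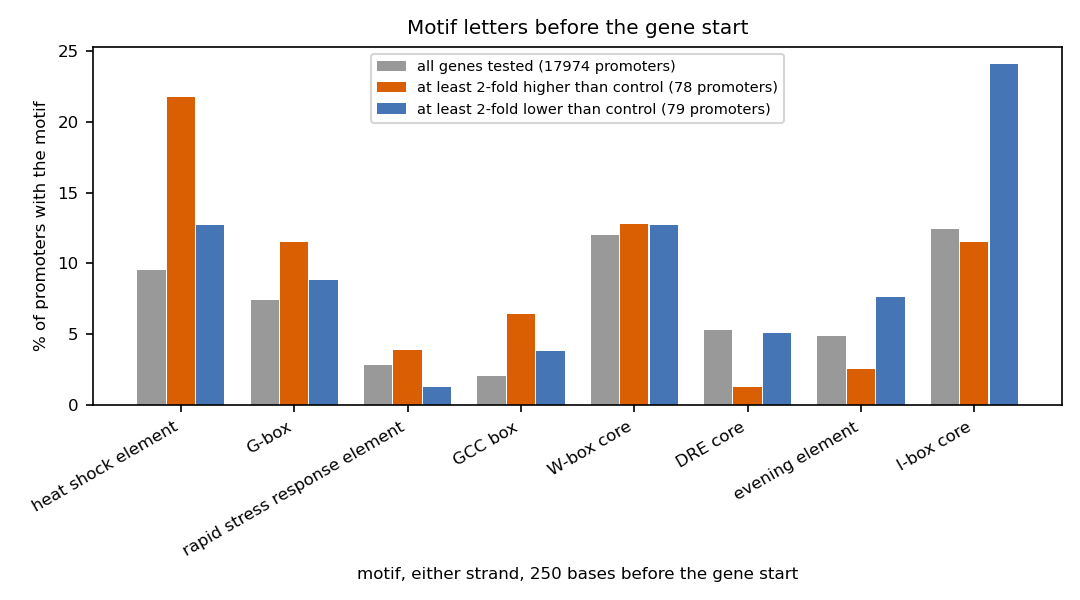
Share of promoters (250 bases before the gene start, either strand) that hold each of 8 motifs, for all genes tested (grey, 17974 promoters), genes at least 2-fold higher than control (orange, 78) and at least 2-fold lower (blue, 79). The heat shock element is most frequent in the higher genes (21.8%) and the I-box core in the lower genes (24.1%).

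Against the HL leaf of HL&HS plants, which received the same light for the same time, 3400 genes (18.8%) differed, 1823 (10.1%) higher and 1577 (8.73%) lower in the HL leaf of singly treated plants, and 360 (1.99%) by at least 2-fold, 292 (1.62%) higher and 68 (0.376%) lower. HSFA2 averaged 883 ± 47.7 against 1373 ± 15.6 in that leaf, a log2 difference of -0.64, and HSP70 and STZ differed by -0.79 and -0.91. BAG6, HSP17.6II and CYP707A3 did not pass the threshold between these leaves, with log2 differences of -0.01, 0.04 and 0.04. HSP17.6C and HSP23.6 were higher in the singly treated plants, by 0.94 and 1.18.

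Levels at 8 min are given without a test. In the leaf group titled HL at 8 min, whose title and treatment tag name different stresses, HSP17.6A-CI averaged 5269.5 ± 228, BAG6 5983 ± 525 and ORA47 717 ± 26.3. Those means are above the 2 min HL means of 490.4 ± 23.1, 435 ± 45.7 and 92.3 ± 19.2. ASN1 averaged 456 ± 39.2 there, above its control mean of 388 ± 31.5, while SEN1 averaged 169 ± 27.1, below its control mean of 435 ± 15.4.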

How the data were processed

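The deposited table holds the authors' normalized counts, a signal in which each library's read counts are divided by a size factor. Per the submitters' processing notes the tools were FastQC 0.11.7, STAR 2.4.0.1 and DESeq2 1.20.0, with the TAIR10 genome; the use of strand in counting is not given in the sources used here. Whole reads came out of 100% of the values within 1e-06 reads of a whole number. The main test was limma 3.58.1 in R 4.3.3 on log2(normalized count + 1), with a trend in the prior variance and all 33 leaf libraries (11 groups) in 1 fit. Genes needed a mean of at least 10, p was adjusted by Benjamini-Hochberg over all of them. On this scale the added 1 pulls low values together, while a library at 0 can still widen a difference. The recovered reads were also tested with edgeR 4.0.16 and DESeq2 1.42.0; further alternatives changed the filter, pseudocount, scaling, groups in the fit and replicates, or added a replicate block. The fitting code was also run on simulated counts. These held no batch effect and the same dispersion of a gene in every group, so that run does not bear on the calls made here. Of the 32833 IDs 32548 matched RefSeq TAIR10.1 and the other 285 are organellar. Named were 7 stress genes given at the outset, the 10 largest rises and falls with a mean of at least 50 and no overlap, the 5 smallest p in each direction, the 6 largest differences from HS in each direction among genes at least 2-fold from both references, and list members at least 2-fold changed or, failing these, up to 3 with the smallest p. Other list members were named after their values were seen. The comparison, its gene lists and its naming rule were chosen with earlier results of these data known. An exact permutation test of 3 libraries against 3 cannot go below p = 0.1.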

Additional observations from a re-analysis of the deposited data

Results flagged for a closer look

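AT2G45220 and AT1G26390 differed between HL leaves of plants without and with a heated leaf. Among the 10 largest rises and falls, they were lower than control in the HL leaf and higher than control in the HL leaf of HL&HS plants, each past the threshold. The log2 difference was -4.23 for AT2G45220 and -3.82 for AT1G26390, both past the adjusted p threshold in limma. In each gene all 3 libraries of the singly treated plants lay below all 3 of the others. The cause was not tested.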

How the results depend on the processing

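Among the 91 named genes, no difference from control or from HS that passed the threshold changed sign. The signs of the other genes were not compared across the alternatives. The 3604 genes that differed between HL and control ranged from 2688 (without HL replicate 1) to 4534 (only the compared groups in the fit), with 4005 in edgeR and 3876 in DESeq2. The 1541 against HS became 3757 with only the compared groups, 2615 in edgeR and 2527 in DESeq2. They ranged from 909 (without HL replicate 1) to 1270 when a library was left out, with 960 without HS replicate 2. The 3400 against the HL leaf of HL&HS plants became 6337 with only the compared groups and 5196 in edgeR. The 161 genes at least 2-fold from control became 328 without a filter (199 higher, 129 lower) and 52 with a mean of at least 50 (29 higher, 23 lower), and the 55 that also differed from HS became 95 and 23. The cause was not tested, apart from the filter, which by construction changes the genes tested. With the replicate number as a block the counts were 3657, 1558, 3420, 163 and 54. Deviations of same-numbered HL and control libraries correlated at 0.0336, 0.0502 and -0.00909, so the numbers were not taken as pairs. Of 1343 alternative values of the 91 named genes against control, 19 in 5 genes lost and 17 in 8 genes gained the call; of 1341 against HS, 37 in 10 genes lost and 29 in 12 genes gained it. Of 810 alternative list counts, 66 moved by over 1.5 times. Low genes limit the largest folds: 49 of the 78 higher and 60 of the 83 lower genes had a mean under 50.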

Other observations

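PDF1.2, a plant defensin gene and marker of joint jasmonate and ethylene responses, was chosen after its values were seen. It held 0, 1.68 and 1.76 normalized counts in control, 17.7, 111 and 38.3 under HL and 1.1, 2.71 and 2.18 under HS. The HL libraries were above all others here but spread widely, with the highest in replicate 2.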
